A study of Mus musculus with 6 samples.

Results

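Rab proteins are small GTPases that mark the membranes of a cell and direct vesicles between them. Bound to GTP, a Rab sits on its membrane through lipid tails at its end and recruits effectors that tether, move or fuse vesicles. Guanine nucleotide exchange factors (GEFs) switch it on, GTPase-activating proteins (GAPs) switch it off, and GDP dissociation inhibitors keep the inactive form in the cytosol. In microglia, the resident macrophages of the brain, these routes carry phagosomes and endosomes to lysosomes, return receptors to the surface and release cytokines and vesicles.

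The genes described here are the known genes of the deposited count table whose symbol is Rab followed by a number and at most a letter and a further number, which leaves out effectors and Rab-like genes such as Rab11fip1 or Rabl3. The table held 59 such genes among 38207 genes and loci, each on a single line. Microglia of the brain of WT mice were compared after sham surgery (3 libraries) and after tMCAO (3 libraries), an abbreviation in wide use for blocking and then reopening the middle cerebral artery to model ischemic stroke. Each library was a nanopore cDNA library of the pooled cells of 30 mice. Age, time from surgery to sampling and the method of isolating microglia are not stated by the labels used. Library totals ran from 1855495 to 2614512 counts, so that a single count equals 0.382 to 0.539 CPM (counts scaled to a common library total).

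Levels are the deposited CPM, which the authors scaled by library totals, and values of a group are listed for its libraries 1, 2 and 3. Log2 fold changes (tMCAO against sham, with standard error, SE) and adjusted p-values come from edgeR's quasi-likelihood test over 13127 genes and loci, after TMM scaling, and a gene with an adjusted p under 0.05 is called changed. Scaling by library totals alone moved the median log2 fold change of all tested genes from 0.00 to 0.11, so CPM values lie slightly higher in tMCAO than the fold changes do. Over all tested genes, the deviations of sham 1 and tMCAO 3 from the means of their groups correlated at 0.25. The other 8 pairs of a sham and a tMCAO library ran from -0.21 to 0.13. Deviations from the mean of 3 libraries constrain one another, so these values alone do not show that sham 1 and tMCAO 3 stand apart. The defining markers of microglia had a summed level of 35418 to 36358 CPM in sham and of 33058 to 36612 CPM in tMCAO, with all 10 detected. In bulk pools, fewer cells of a type and less RNA per cell cannot be told apart.

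After tMCAO, 9 Rab genes rose and 1 fell among the 36 with enough counts to test (27.8% called, against a background of 18.1% of all genes and loci tested). The risers were Rab7b, Rab32, Rab20, Rab31, Rab27a, Rab1b, Rab5b, Rab3d and Rab34, and the gene that fell was Rab21. Over all tested genes, 9.17% were called higher and 8.96% lower. Higher calls were 50.6% of all calls, 42.2% with upper-quartile scaling (9 Rab genes called, 7 higher and 2 lower, background 18.8%) and 63.2% with library totals only (12 Rab genes called, 11 higher and 1 lower, background 17.9%). Among the 8528 known genes tested, those shares were 11.4% and 5.72%. The median log2 fold change of the tested Rab genes was 0.16, against 0.09 for all known genes tested, and single values ran from -1.21 to 4.20. The 5 calls of Rab7b, Rab32, Rab20, Rab31 and Rab27a held under all 15 alternatives run, while the other 5 were each lost under several of them. With DESeq2, 13.9% of the tested Rab genes were called against a background of 12.9%, so the share of Rab genes called lay near that of all genes there. Leaving out 1 library brought the count to 6 without sham 1 (16.7% of those tested, background 9.31%) and 7 without sham 2 (18.9% against 14.3%). It was 5 without sham 3 (13.9% against 11.5%) and 6 without tMCAO 1 (15.8% against 14.5%). The count was 5 without tMCAO 2 (13.2% against 11.1%) and 8 without tMCAO 3 (21.1% against 17.2%). Without both sham 1 and tMCAO 3 it was 6 (16.2% against 11.4%).

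**Figure D1:**
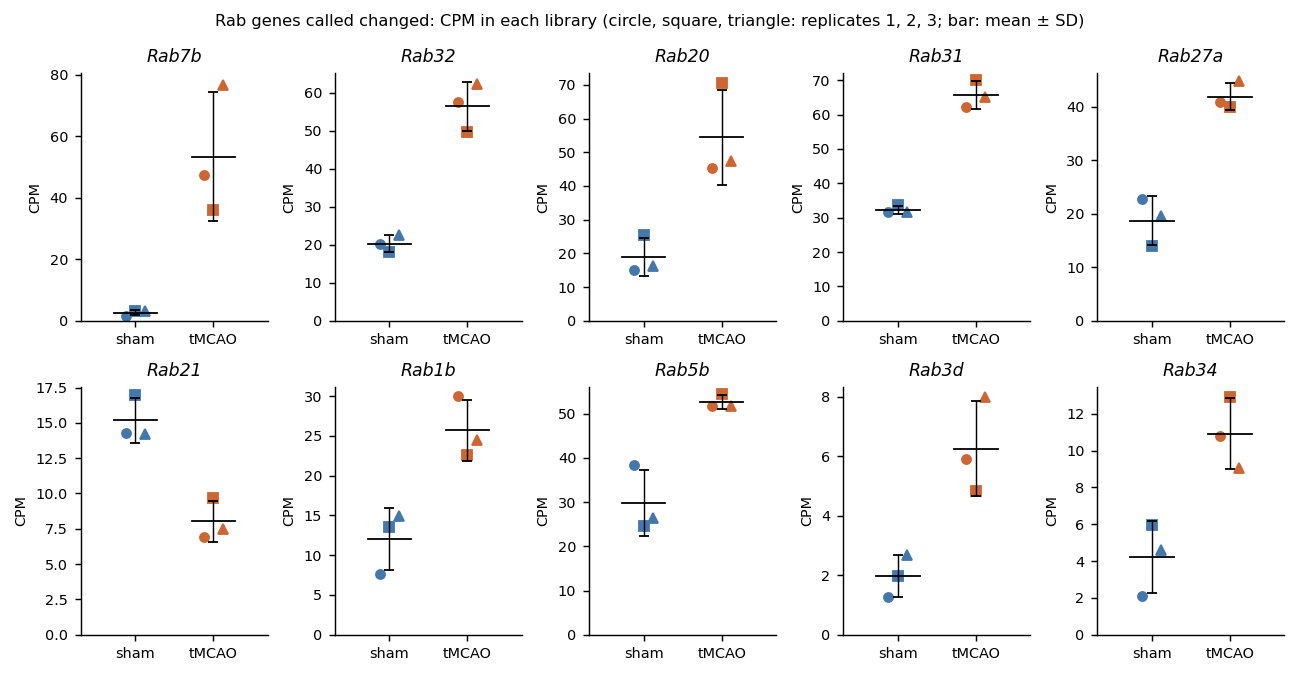
CPM of the 10 called Rab genes in each sham (blue) and tMCAO (orange) library, with 1 panel per gene, a linear axis from 0, and bars for the mean ± SD of 3 libraries. In every panel the libraries of the groups do not overlap, and Rab21 is the only panel in which tMCAO lies lower.

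The largest difference was that of Rab7b (ENSMUSG00000052688), a macrophage-expressed relative of Rab7 that carries cargo from late endosomes to the Golgi and limits signalling by Toll-like receptors. Its level was 1.69, 3.17 and 3.06 CPM in sham and 47.3, 36.1 and 76.7 CPM in tMCAO. All tMCAO libraries lay far above all sham libraries, in which Rab7b had 4, 8 and 8 counts. The mean went from 2.64 ± 0.827 to 53.4 ± 21 CPM (SD, n = 3; log2 fold change 4.20 ± 0.39 SE, edgeR adjusted p = 5.10e-05, at most 0.00327 among the alternatives). Without sham 1 and tMCAO 3, the log2 fold change of Rab7b was 3.54 (edgeR adjusted p = 0.00015). Rab7 itself, the GTPase that brings late endosomes and autophagosomes to fusion with lysosomes (ENSMUSG00000079477), had 129, 162 and 156 CPM in sham and 246, 219 and 214 CPM in tMCAO. Its groups did not overlap either, yet the smaller difference missed the threshold (0.48 ± 0.16, edgeR adjusted p = 0.0543). With library totals as the only scaling and with no filter on low counts, Rab7 passed it (0.0173 and 0.0148), and its highest adjusted p was 0.269. The log2 ratio of Rab7b to Rab7 within a library was -6.25, -5.67 and -5.67 in sham and -2.38, -2.60 and -1.48 in tMCAO, a measure that no scaling of libraries can move. In the GENCODE M21 transcripts, 17.8% of the 31-base words of Rab7 recur in other genes, the pseudogene Rab7-ps1 among them, and Gm5577 overlaps it on the opposite strand, so counts of Rab7 are uncertain. For Rab7b that share is 0.0224%.

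Of 12 late endosomal, lysosomal and autophagosomal members, 6 were tested, of which 2 rose (Rab7b and Rab34) and none fell in edgeR's test. That is 33.3% called against a background of 18.1%, and for role groups this small the difference was not tested. One member, Rab39, was lower with an unadjusted p under 0.05 in that test, and the median log2 fold change of the group was 0.54. Rab34, which positions lysosomes and takes part in phagosome maturation and cilium formation (ENSMUSG00000002059), had 2.11, 5.95 and 4.59 CPM in sham and 10.8, 12.9 and 9.05 CPM in tMCAO. These libraries did not overlap, but they rest on 5 to 24 counts each. Its log2 fold change was 1.23 ± 0.40 (edgeR adjusted p = 0.0488), and the call held in 4 of 15 alternatives, with adjusted p from 0.0191 to 0.186. Rab9, which returns mannose 6-phosphate receptors from late endosomes to the Golgi (ENSMUSG00000079316), had 25.3, 31.3 and 28.7 CPM in sham and 34.0, 36.1 and 40.5 CPM in tMCAO (0.25 ± 0.21, edgeR adjusted p = 0.438). Rab29, a Golgi and lysosome Rab that recruits the kinase LRRK2, had 0.60 ± 0.28 (edgeR adjusted p = 0.155), and Rab39, which acts in autophagy of macrophages, -0.72 ± 0.29 (0.100). Neither passed the test, although the groups of both did not overlap.

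Lysosome-related organelles have a pair of dedicated Rabs, Rab32 and Rab38. Rab32 (ENSMUSG00000019832), which also restricts intracellular bacteria in macrophages, had 20.2, 18.2 and 22.6 CPM in sham and 57.6, 49.6 and 62.3 CPM in tMCAO. The lowest tMCAO library, at 49.6 CPM, lay far above the highest sham library, at 22.6 CPM. Rab32 rose from 20.3 ± 2.17 to 56.5 ± 6.44 CPM (SD, n = 3; 1.36 ± 0.20, edgeR adjusted p = 0.000801, at most 0.00879 among the alternatives). Rab38 had 1, 4 and 0 counts in sham and 0, 0 and 1 in tMCAO and was not tested. Levels that low do not allow a statement on Rab38.

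Among the Rabs of early endosomes and phagosome entry, 7 of 8 were tested, of which 3 rose and 1 fell (57.1% called, background 18.1%). Their median log2 fold change was -0.09. Rab20, which promotes maturation of the macrophage phagosome (ENSMUSG00000031504), had 15.2, 25.4 and 16.4 CPM in sham and 45.3, 70.6 and 47.4 CPM in tMCAO. Library 2 was the highest of each group, and the groups stayed apart. The log2 fold change of Rab20 was 1.38 ± 0.26 (edgeR adjusted p = 0.00328, at most 0.0246 among the alternatives). GENCODE M21 places exons of E230013L22Rik on the opposite strand over those of Rab20. Since the use of strand in counting is not known, reads of these genes cannot be told apart. Rab31, which moves cargo between the Golgi and endosomes (ENSMUSG00000056515), had 31.6, 33.7 and 31.7 CPM in sham and 62.1, 70.1 and 65.0 CPM in tMCAO. Its replicates lay close together in both groups, and it rose by a log2 fold change of 0.90 ± 0.18 (edgeR adjusted p = 0.0045, at most 0.0329 among the alternatives).

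The Rab5 paralogs, which organise fusion of early endosomes, gave different values. Rab5b (ENSMUSG00000000711) had 38.4, 24.6 and 26.4 CPM in sham and 51.7, 54.4 and 51.7 CPM in tMCAO, and was called higher (0.71 ± 0.21, edgeR adjusted p = 0.0327). Rab5c (ENSMUSG00000019173) had 84.3, 86.0 and 99.1 CPM in sham and 76.3, 113 and 84.7 CPM in tMCAO, with overlapping groups (-0.09 ± 0.18, edgeR adjusted p = 0.762). Rab5a lay between 4.92 and 5.90 CPM in all 6 libraries (-0.10 ± 0.36). Within libraries, the log2 ratio of Rab5b to Rab5c was -1.62 ± 0.42 in sham and -0.78 ± 0.25 in tMCAO, and that of Rab5b to Rab5a 2.45 ± 0.23 and 3.29 ± 0.13 (SD, n = 3). Neither pair of groups overlapped in these ratios, whose difference was not tested. The call of Rab5b held in 8 of 15 alternatives, with adjusted p from 0.00728 to 0.130, and 15.7% of its 31-base words recur in other genes, Gm13991 among them.

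Rab21, an early endosomal Rab that binds integrins and takes part in their traffic (ENSMUSG00000020132), was the member that fell. It had 14.3, 17.0 and 14.2 CPM in sham and 6.89, 9.70 and 7.46 CPM in tMCAO. Each tMCAO library lay below each sham library, on 14 to 43 counts. The log2 fold change was -1.04 ± 0.30 (edgeR adjusted p = 0.0275). The call held in 6 of 15 alternatives and in none of the 6 that leave out a single library, where adjusted p ran from 0.0522 to 0.0926. Rab22a, which works in endosomal recycling and sorting, lay between 4.26 and 8.01 CPM with overlapping groups (-0.45 ± 0.38).

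**Figure D2:**
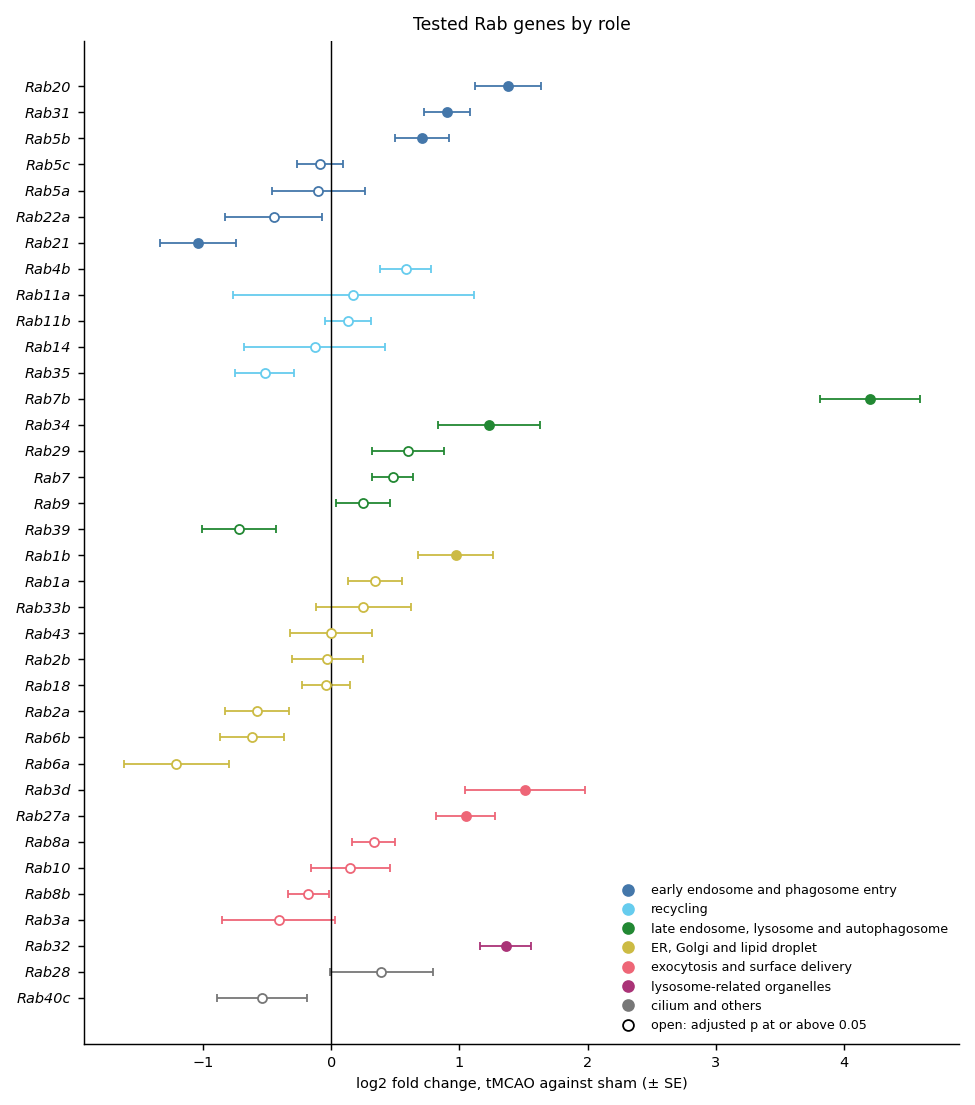
Log2 fold change of tMCAO against sham with its SE for the 36 tested Rab genes, coloured by role, where filled points have an adjusted p under 0.05 in edgeR's quasi-likelihood test. Rab7b at 4.20 lies far to the right of all others, which run from -1.21 (Rab6a) to 1.51 (Rab3d).

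To show the letters in front of these genes, the promoters of 3 members are given: Rab32 and Rab20, the risers with the smallest p-values for which the RefSeq table used here has an entry, and Rab21. That table had an entry for 48 of the 59 Rab genes and for 9 of the 10 called ones. Shown are the 250 bases before the annotated start, on the strand of the gene, from RefSeq on GRCm38.p6, at chr10:10558208-10558457 (minus strand) for Rab32, chr8:11478641-11478890 (minus strand) for Rab20 and chr10:115315592-115315841 (minus strand) for Rab21. Capitals mark matches to any of 4 motifs searched on both strands.
Rab32: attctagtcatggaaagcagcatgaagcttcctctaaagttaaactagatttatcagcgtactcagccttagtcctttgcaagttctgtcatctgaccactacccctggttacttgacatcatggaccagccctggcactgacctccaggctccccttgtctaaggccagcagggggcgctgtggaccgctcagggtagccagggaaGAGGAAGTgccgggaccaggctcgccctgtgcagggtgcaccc
Rab20: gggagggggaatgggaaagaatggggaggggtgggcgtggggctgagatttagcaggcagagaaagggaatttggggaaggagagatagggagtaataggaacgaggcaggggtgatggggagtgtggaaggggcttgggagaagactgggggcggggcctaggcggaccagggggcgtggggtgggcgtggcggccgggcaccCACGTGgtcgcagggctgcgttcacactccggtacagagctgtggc
Rab21: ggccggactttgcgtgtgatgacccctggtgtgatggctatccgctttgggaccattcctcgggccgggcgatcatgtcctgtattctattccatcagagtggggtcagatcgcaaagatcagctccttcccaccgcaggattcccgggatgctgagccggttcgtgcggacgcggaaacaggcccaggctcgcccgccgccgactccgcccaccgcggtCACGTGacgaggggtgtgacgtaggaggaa
In the Rab32 promoter, the capitals are a match to GAGGAAGT, letters bound by the macrophage factor PU.1, from 43 to 36 bases before the start. In those of Rab20 (46 to 41 bases before the start) and Rab21 (30 to 25 bases before it), they are CACGTG, the E-box bound by MITF and TFEB, among other factors. The other motifs searched were GAAA followed by any 2 bases and another GAAA, the core of the interferon-stimulated response element, and TGANTCA. In TGANTCA, N stands for any base, so the pattern holds the site bound by AP-1 but is wider than it. Of 32851 promoters of this length in the table, 2.44% held GAGGAAGT, 6.02% CACGTG, 2.98% the GAAA pair and 6.75% TGANTCA. Among the 8 risers with an entry, 1 held GAGGAAGT (Rab32), 2 CACGTG (Rab20 and 1 of the 2 promoters of Rab27a), 1 TGANTCA (Rab34) and 0 the GAAA pair. Over all 48 Rab genes with an entry, 5 held CACGTG (10.4%), Rab5a, which was not called, among them. GAGGAAGT and TGANTCA stood before 2 genes each (4.17%) and the GAAA pair before 1 (2.08%). Counts of Rab genes are per gene, some with several promoters, while the shares of all promoters are per promoter. CACGTG thus stood before a gene that fell as well as before genes that rose. A match describes letters only and is no evidence of binding.

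Rabs of exocytosis and delivery to the cell surface numbered 13, of which 6 were tested and 2 rose (33.3% called, background 18.1%). Their median log2 fold change was 0.24. Rab27a, which docks secretory granules, lysosome-related organelles and exosome-carrying endosomes at the plasma membrane (ENSMUSG00000032202), had 22.8, 13.9 and 19.5 CPM in sham and 40.9, 39.9 and 44.7 CPM in tMCAO. The tMCAO libraries lay in a narrow band above all sham libraries. Rab27a rose with a log2 fold change of 1.05 ± 0.23 (edgeR adjusted p = 0.00703, at most 0.0296 among the alternatives). Its paralog Rab27b had 0, 4 and 1 counts in sham and 1, 0 and 0 in tMCAO, too few to test. In GENCODE M21 the exons of Gm27186 overlap those of Rab27a on the same strand, and 5.93% of the 31-base words of Rab27a recur in other genes, so counts of Rab27a may hold some of their reads. Rab3d, a Rab of secretory granules (ENSMUSG00000019066), had 1.27, 1.98 and 2.68 CPM in sham and 5.91, 4.85 and 7.99 CPM in tMCAO (1.51 ± 0.47, edgeR adjusted p = 0.0409). With 3 to 15 counts per library, Rab3d had the lowest counts of the called genes. Its call was lost whichever of the 6 libraries was left out (edgeR adjusted p from 0.0648 to 0.176), and held in 5 of 15 alternatives.

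Rab8a and Rab8b, which carry vesicles from the Golgi and recycling endosomes to the surface, did not pass. Rab8a (ENSMUSG00000003037) had 83.9, 68.2 and 66.6 CPM in sham and 91.1, 99.7 and 106 CPM in tMCAO, groups that do not overlap (0.33 ± 0.17, edgeR adjusted p = 0.215). Rab8b (ENSMUSG00000036943) had 86.9, 86.8 and 101 CPM in sham and 90.6, 88.4 and 83.1 CPM in tMCAO, with overlap (-0.18 ± 0.16, edgeR adjusted p = 0.459). Rab3a, the synaptic vesicle Rab of neurons, lay between 2.46 and 6.74 CPM (-0.41 ± 0.44). Summed over 12 neuron markers, the level was 16.8 to 24.9 CPM in sham and 5.86 to 11.3 CPM in tMCAO, with none of the 12 at 0 in every library and none with enough counts to test.

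Of 12 Rabs of the endoplasmic reticulum, the Golgi and lipid droplets, 9 were tested and only Rab1b was called in edgeR's test (11.1%, background 18.1%). Their median log2 fold change was -0.03. Rab1b (ENSMUSG00000024870) and Rab1a (ENSMUSG00000020149) drive transport from the endoplasmic reticulum to the Golgi. Rab1b had 7.59, 13.5 and 14.9 CPM in sham and 30.0, 22.6 and 24.5 CPM in tMCAO (0.97 ± 0.29, edgeR adjusted p = 0.0320). Sham 1 was the lowest library, and without it the log2 fold change was 0.71 (adjusted p = 0.139, the highest of the alternatives, 8 of which kept the call, the lowest at 0.00468). Rab1a had 50.2, 57.1 and 63.5 CPM in sham and 102, 77.6 and 55.9 CPM in tMCAO, where tMCAO 3 lay within the sham range (0.34 ± 0.21, edgeR adjusted p = 0.283). Rab18, a Rab of lipid droplets and the endoplasmic reticulum (ENSMUSG00000073639), had 63.3, 85.2 and 62.3 CPM in sham and 76.8, 68.4 and 77.8 CPM in tMCAO (-0.04 ± 0.19, edgeR adjusted p = 0.911).

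The Golgi Rabs Rab6a, Rab6b and Rab2a were lower in every tMCAO library than in every sham library but did not pass the test. Rab6a, which moves vesicles from the Golgi to the endoplasmic reticulum, had 6.75, 7.53 and 6.88 CPM in sham and 4.92, 2.69 and 2.13 CPM in tMCAO. Its log2 fold change was -1.21 ± 0.41 (edgeR adjusted p = 0.0557), and 3 of 15 alternatives called it, with adjusted p from 0.0426 to 0.206. Values were -0.62 ± 0.25 for its paralog Rab6b (edgeR adjusted p = 0.100) and -0.58 ± 0.25 for Rab2a (0.129), and -0.03 ± 0.28 for Rab2b, whose groups overlapped. Over all 36 tested Rab genes, 15 lay higher and 6 lower in tMCAO with no overlap of CPM between the groups. The background was 23.3% of all tested genes higher and 14.6% lower.

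None of the 5 tested recycling Rabs passed edgeR's quasi-likelihood test or DESeq2 (background 18.1% and 12.9%). Rab4b and Rab35 had an unadjusted p under 0.05 in edgeR's test (0.0122 and 0.0395). Rab11a, the main Rab of recycling endosomes (ENSMUSG00000004771), had 19.0, 110 and 106 CPM in sham and 143, 128 and 24.0 CPM in tMCAO. Sham 1 and tMCAO 3 held about as much as each other and far less than the remaining libraries, with 45 counts each against 237 to 290. Rab14, which moves cargo between the Golgi, endosomes and phagosomes (ENSMUSG00000026878), had 137, 225 and 250 CPM in sham and 281, 267 and 70.3 CPM in tMCAO. It was lowest in the same 2 libraries. On the log2(CPM + 1) scale, sham 1 and tMCAO 3 lay on average 2.45 below the other libraries of their groups for Rab11a and 1.37 below for Rab14. Of the 8528 known genes tested, 59 were as low for this measure as Rab11a, and 244 as low as Rab14. The log2 fold changes were 0.17 ± 0.94 for Rab11a and -0.13 ± 0.55 for Rab14 with all libraries, and 0.14 and 0.03 without these 2, where neither was called (edgeR adjusted p = 0.643 and 0.934).

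Rab11b, the close paralog of Rab11a, did not share this pattern: it had 59.0, 52.7 and 51.3 CPM in sham and 61.6, 60.4 and 70.8 CPM in tMCAO (0.13 ± 0.18, edgeR adjusted p = 0.667). The log2 ratio of Rab11a to Rab11b was 1.04 to 1.21 in 4 libraries and -1.64 and -1.56 in sham 1 and tMCAO 3. In GENCODE M21, exons of Gm47308 overlap those of Rab11a on the same strand, and 3.34% of its 31-base words recur in other genes. For Rab11b that share is 11.1%, with Rab11b-ps2 among those genes, so counts of both are uncertain. The share is 15% for Rab9 and 10.7% for Rab2a. Rab28, a Rab of cilia (ENSMUSG00000029128), had 5.90, 22.6 and 14.5 CPM in sham and 23.6, 22.1 and 16.5 CPM in tMCAO (0.39 ± 0.40), where sham 1 was again the lowest. Rab10, which delivers glucose transporters and receptors to the surface, had 20.7, 21 and 21 CPM in sham and 38.9, 24.3 and 12.8 CPM in tMCAO, so that its tMCAO libraries spread to both sides of sham (0.15 ± 0.31). Rab40c, whose protein carries a SOCS box for ubiquitin ligases (ENSMUSG00000025730), had 8.43, 7.93 and 14.9 CPM in sham and 9.36, 7.55 and 6.39 CPM in tMCAO (-0.54 ± 0.35, edgeR adjusted p = 0.309).

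**Figure D3:**
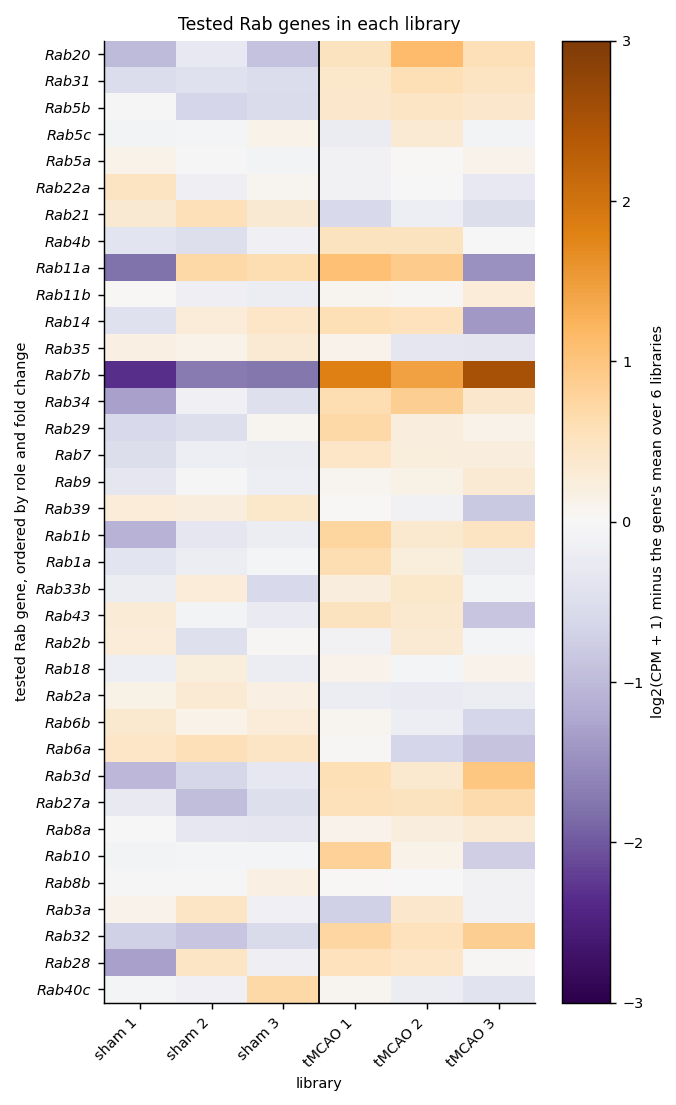
Deviation of log2(CPM + 1) from the mean over 6 libraries of each tested Rab gene, with 1 row per gene ordered by role and 1 column per library, a line between the groups, and orange for higher and purple for lower. Rab11a and Rab14 are purple in sham 1 and tMCAO 3 rather than in one group, while Rab7b, Rab32 and Rab20 separate the groups.

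Rab35 and Rab4b complete the recycling Rabs with enough counts. Rab35, which recycles cargo straight to the surface, had 24.9, 24.2 and 27.5 CPM in sham and 23.6, 17.2 and 17.0 CPM in tMCAO, groups that did not overlap (-0.52 ± 0.23, edgeR adjusted p = 0.131). Rab4b, a Rab of fast recycling, had 31.6, 29.3 and 37.5 CPM in sham and 59.6, 59.3 and 41.0 CPM in tMCAO (0.58 ± 0.20, edgeR adjusted p = 0.0608, from 0.0223 to 0.199 among the alternatives). Of its 31-base words, 82.3% recur in other genes, the overlapping Gm21983 among them, and of those of Rab43 90.3%, Gm45140 among them, so counts of these 2 Rab genes depend on how reads were shared out. Rab43 (0.00 ± 0.32) and Rab33b (0.25 ± 0.37), both Golgi Rabs, did not pass.

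Summed over all 59 Rab genes, the level was 1140, 1374 and 1409 CPM in sham and 1866, 1807 and 1436 CPM in tMCAO. Sham 1 and tMCAO 3 had the lowest sum of their groups. With the TMM factors of the test, the sums were 1164, 1493 and 1428 in sham and 1740, 1689 and 1467 in tMCAO, so that the groups overlapped, which they did not with library totals.

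A further 23 Rab genes had too few counts to test. Rab17, an epithelial Rab, and Rab40b had no count in any library, which allows a level of up to 1.15 to 1.62 CPM in a library (3 counts, counting error only). The other 21 held from 1 count over all 6 libraries (Rab9b) to 61 (Rab24). Rab19 had 0, 0 and 1 counts in sham and 4, 4 and 6 in tMCAO, Rab3b 2, 0 and 0 and then 3, 4 and 3, and Rab12, a Rab of endosomes and lysosomes, 8, 11 and 17 and then 2, 3 and 6. With no filter on low counts, Rab19 was the only one of the 21 that edgeR called (adjusted p = 0.0192). These genes were picked after their values were seen. Besides them, the groups of Rab30 did not overlap, with 5, 2 and 2 counts in sham and 0, 0 and 1 in tMCAO. The untested genes include Rabs known from neurons or epithelia (Rab3c, Rab25, Rab39b) and from other secretory cells (Rab26, Rab37).

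The proteins that switch, lipidate or answer Rabs were taken from 5 lists with 122 tested genes, of which 17 rose and 5 fell (18.0% called, near the background of 18.1%). Without sham 1, sham 2, sham 3 or tMCAO 2, the lists gave 11, 13, 14 and 12 calls (background 9.31%, 14.3%, 11.5% and 11.1%). Among Rab GEFs, 5 of 38 tested rose and none fell in edgeR's test (13.2% called against the same 18.1%), with a median log2 fold change of 0.33. Rabgef1, the exchange factor of Rab5 and Rab21, had 12.2, 11.5 and 9.56 CPM in sham and 38.4, 36.6 and 35.1 CPM in tMCAO (1.60 ± 0.23, edgeR adjusted p = 0.000550). Its groups were far apart and its replicates close together. Trappc9, a subunit of a TRAPP complex, rose from 19.9 ± 1.79 to 41.1 ± 6.26 CPM (0.93 ± 0.22), and St5, a DENN-domain protein, from 6.68 ± 1.29 to 17.0 ± 4.02 (1.22 ± 0.31). These 2 calls held in 13 and 11 of 15 alternatives. Rab3il1, the exchange factor of Rab8 known as a gene of microglia, had 59.9, 55.1 and 65.8 CPM in sham and 78.8, 67.4 and 71.4 CPM in tMCAO and did not pass (0.15 ± 0.17, edgeR adjusted p = 0.576).

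Of 28 tested GAPs, 5 rose and 1 fell (21.4% called, background 18.1%), with a median of 0.15. Tbc1d14, which acts on recycling endosomes and autophagy, had 38.0, 41.6 and 44.0 CPM in sham and 86.2, 79.8 and 73.5 CPM in tMCAO (0.83 ± 0.17, edgeR adjusted p = 0.00526). Tbc1d8 (1.58 ± 0.41) and Tbc1d22a (0.81 ± 0.22), further proteins with the catalytic TBC domain, also rose. Evi5, a TBC protein that binds Rab11, fell from 10.9 ± 1.36 to 4.83 ± 1.44 CPM (-1.29 ± 0.35). These last 3 calls held in 9 (Evi5), 13 (Tbc1d8) and 11 (Tbc1d22a) of 15 alternatives, with adjusted p of at most 0.107, 0.0769 and 0.0817.

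In the list of the membrane cycle and lipidation, 1 of 14 tested genes rose and 1 fell (14.3% called, background 18.1%). Rabggta, the alpha subunit of the enzyme that attaches geranylgeranyl lipids to Rabs, had 73.0, 53.1 and 52.4 CPM in sham and 37.4, 32.9 and 35.1 CPM in tMCAO (-0.87 ± 0.20, edgeR adjusted p = 0.00893). Lrrk1, a kinase that phosphorylates Rab7, had 14.3, 11.9 and 11.5 CPM in sham and 31.5, 27.5 and 25.0 CPM in tMCAO (1.04 ± 0.24, edgeR adjusted p = 0.00915). Its relative Lrrk2, which phosphorylates Rab8 and Rab10, had 2, 5 and 1 counts in sham and 2, 0 and 0 in tMCAO and was not tested. The GDP dissociation inhibitor Gdi2 did not pass (-0.01 ± 0.13, edgeR adjusted p = 0.987).

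Effectors, which bind the active Rab, rose in 6 and fell in 3 of 40 tested genes (22.5% called, background 18.1%), with a median of 0.31. Rabepk, an effector of Rab9 in transport from endosomes to the Golgi, had 83.5, 82.4 and 79.9 CPM in sham and 34.0, 27.5 and 21.3 CPM in tMCAO (-1.69 ± 0.19, edgeR adjusted p = 0.000123). The highest tMCAO library, at 34.0 CPM, lay far below the lowest sham library, at 79.9 CPM. Mical1, which oxidises actin and binds Rab8 and Rab35, rose from 12.1 ± 1.24 to 33.4 ± 1.82 CPM (1.34 ± 0.22), Vps8, a subunit of the CORVET tether that binds Rab5, from 7.73 ± 0.512 to 23.9 ± 3.42 (1.5 ± 0.26), and Plekhm1, an adaptor of Rab7 on lysosomes, from 4.96 ± 1.18 to 17.1 ± 3.34 (1.66 ± 0.33). These 4 effectors, Rabgef1, Tbc1d14 and Lrrk1 were called under all 15 alternatives, as was Rilpl2 (1.67 ± 0.35), an adaptor of phosphorylated Rab8 and Rab10 outside the naming rule. None of the 3 tested Rab-like genes (Ift27, Ift22 and Rabl6) passed edgeR's test, with log2 fold changes of 0.54, -0.20 and -0.52.

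**Figure D4:**
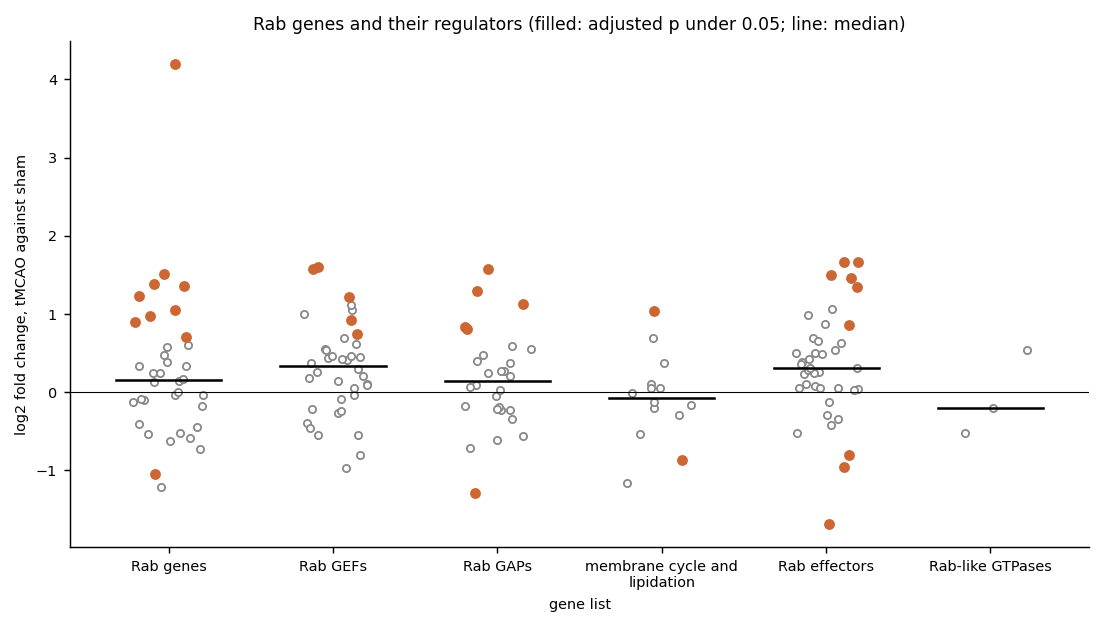
Log2 fold change of tMCAO against sham for tested Rab genes, GEFs, GAPs, genes of the membrane cycle and lipidation, effectors and Rab-like genes, with 1 point per gene, filled where the adjusted p is under 0.05, and a line at each median. Medians lie between -0.20 and 0.33, and the called genes of every list with calls other than the GEFs lie on both sides of 0.

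Summed markers of astrocytes and erythroid cells lay lower in every tMCAO library than in every sham library. Those of the other cells listed here overlapped between the groups. Summed over 8 monocyte and macrophage markers, the level was 81.4, 88.0 and 74.6 CPM in sham and 213, 99.7 and 86.3 CPM in tMCAO. Of 6 tested markers, 4 rose, Ccr2 and Plac8 among them. Others did not move alike: Chil3 had 58.6, 63 and 48.6 CPM in sham and 106, 34.5 and 23.4 CPM in tMCAO. Ly6c2 had 11.4, 11.9 and 13.8 CPM in sham and 21.7, 9.7 and 10.7 CPM in tMCAO. Both lay below every sham library in tMCAO 2 and tMCAO 3. Summed neutrophil markers ran from 1802 to 2290 CPM in sham and from 411 to 1812 CPM in tMCAO, and choroid plexus markers from 8635 to 44663 and from 2275 to 9973 CPM. Astrocyte markers summed to 142 to 423 CPM in sham and 69.4 to 93.2 in tMCAO, oligodendrocyte markers to 187 to 1040 and 146 to 344, erythroid markers to 971 to 6075 and 233 to 394, and endothelial markers to 108 to 153 and 84.7 to 227. In edgeR's test, 3 of 5 tested astrocyte markers were called lower (60%, background 18.1%). So was 1 each of 7 oligodendrocyte, 8 neutrophil and 7 choroid plexus markers. None of 4 tested erythroid or 6 tested endothelial markers was called. No list had a marker at 0 in every library, and the part of these cells in the Rab values was not tested.

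**Figure D5:**
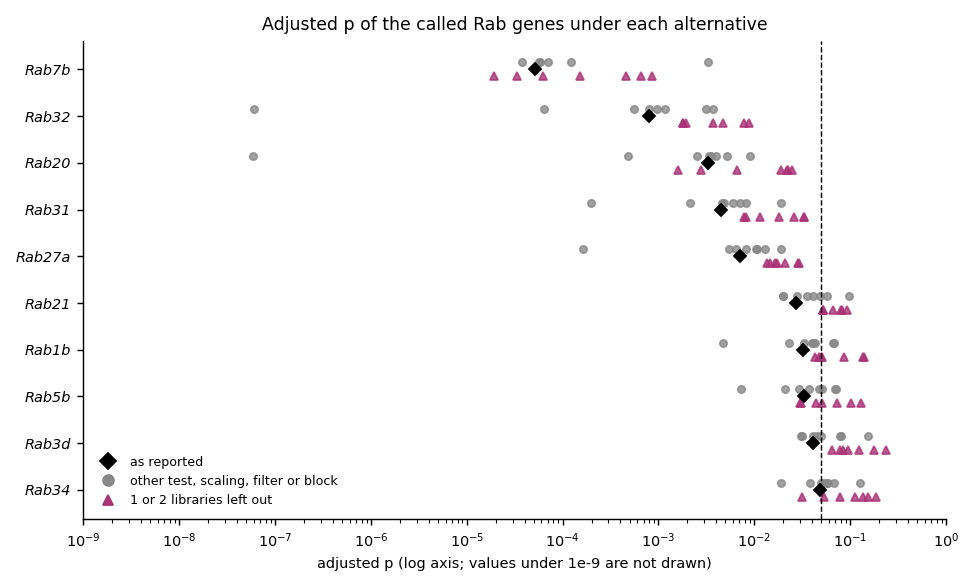
Adjusted p of the 10 called Rab genes on a log axis as reported (diamonds), with other tests, scalings, filters or the block (circles) and with 1 or 2 libraries left out (triangles), with a dashed line at 0.05. The upper 5 genes stay left of the line throughout, and the lower 5 have points on both sides.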

How the data were processed

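Counts of 6 nanopore cDNA libraries, 3 sham and 3 tMCAO, were taken from 1 deposited table. It holds raw counts per gene and library and, beside them, CPM, which the authors scaled by library totals, per the file headers. Deposited CPM and CPM recomputed from the counts differed by at most 4.87e-06. Per the labels' protocols, RNA was extracted with TRIzol from tissue, while the cell type is given as microglia. The submitters' processing notes name minimap2. Neither genome build nor annotation is named there, nor how reads were assigned to genes or whether strand was used. Of 38219 lines, 12 carried only spilled text and were dropped.

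The test was that of edgeR 4.0.16, run in R 4.3.3 from the deposited counts: filterByExpr (minimum count 10, minimum total 15), TMM, robust quasi-likelihood fit with group as the only term, and Benjamini-Hochberg adjustment over all 13127 tested. The SE is the absolute log2 fold change divided by the square root of F. DESeq2 1.42.0, limma voom (limma 3.58.1), other scalings, no filter, known genes only, a replicate block and libraries left out were the alternatives. How the pools were prepared is not stated, and the p-values reflect only variation among these 6 libraries, which may be technical. Libraries came from a PCR-based kit, and limits from counts cover counting error only.

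Role groups and lists of regulators were drawn up from general knowledge. The Rab genes and the lists were chosen with earlier results of these data known. List names that matched no gene of the table were dropped (47 of 48 GEFs, 38 of 38 GAPs, 16 of 16, 64 of 68 effectors and 7 of 8 Rab-like genes matched). Values are given for each called Rab gene, the 2 tested members of each role group with the highest average log2 CPM, per list at most 4 called genes (smallest p first), and Lrrk2, Rab3il1 and Gdi2. Some genes that this rule names are not reported here. Others were picked after their values were seen. Shared 31-base words and exon overlaps come from GENCODE M21, and promoters from RefSeq. In counts simulated for tMCAO against sham on 12053 genes, 26.4% of genes changed 2-fold and 94.8% of those changed 4-fold were recovered. Of the genes run, 87 were changed 2-fold and 96 were changed 4-fold, and all genes were given the same relative spread. In the data, 18.1% of all genes and loci tested were called, so these shares do not carry over to the data.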

Additional observations from a re-analysis of the deposited data

How the results depend on the processing

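Rab7b, Rab32, Rab20, Rab31 and Rab27a were called higher under all 15 alternatives, by gene and not only by count. Of 10 called Rab genes, 5 were called with DESeq2 and 5 with the replicate block, and 6 without sham 1 and tMCAO 3 together. With a single library left out, 5 to 8 Rab genes were called, 13.2% to 21.1% of those tested, against 9.31% to 17.2% of all genes. The shares lay near each other without tMCAO 1 (15.8% against 14.5%) and with the replicate block (13.9% against 12.7%). The labels name no source shared by same-numbered libraries, whose deviations correlated at -0.21, 0.02 and -0.17. Deviations from the mean of 3 libraries constrain one another, so these values cannot decide whether the numbers pair the libraries. Among the tested regulators and effectors there were 22 calls, 14 with DESeq2 and 11 to 22 with a single library left out.

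Over 38 named genes and 15 alternatives (570 values), 483 kept direction and side of the threshold, 68 lost the call, 2 gained it and 17 changed sign. No gene that changed sign was called. Rab14 was 0.01 with library totals, -0.39 to 0.29 with 1 library left out and 0.03 without sham 1 and tMCAO 3. Rab5c was 0.02 with library totals and -0.23 to 0.06 with 1 library left out, and Rab11a -0.31 to 0.64. Rab18 was 0.08 with library totals, 0.02 without a filter, 0.15 without sham 2 and 0.05 without tMCAO 2, and Gdi2 0.11 and 0.07 under the first 2 of these and -0.04 to 0.06 with 1 library left out. The cause was not tested. Upper-quartile scaling called 7 Rab genes higher and 2 lower, library totals 11 and 1. In the simulation above, most genes changed 2-fold were missed, but its settings differ from the data, so the share missed in the data is not known. A Rab gene that was not called may still differ.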
